A study of Mus musculus with 72 samples.

Results

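The cytosolic ribosomal proteins are the proteins that, with ribosomal RNA, build the ribosomes outside mitochondria. Members were taken by symbol: every gene of the sense count table named Rpl, Rps or Rplp followed by a digit, without pseudogene symbols and without the Rps6k kinases. The rule found 90 members among 27846 genes, and 88 of them had enough counts to be tested among 15066 genes. Of the 90 members, 76 encode standard ribosomal proteins, 46 of the large and 30 of the small subunit, and are called core members here. The remaining members were 7 paralogues (Rpl3l, Rpl39l, Rpl22l1, Rps27l, Rpl36al, Rps27rt and Rpl7l1), 6 processed pseudogenes (Rps3a2, Rps3a3, Rps4l, Rpl37rt, Rpl6l and Rpl32l) and Rps19bp1. Rps19bp1 encodes a protein that binds Rps19 and SIRT1 and is no ribosomal protein. The rule does not match some other genes of the cytosolic ribosome, among them Rpsa, Fau and Rack1, which are given separately.

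The large subunit forms peptide bonds, and the small subunit reads the mRNA. Mammalian ribosomal protein mRNAs are known for a start made of pyrimidines, the 5′ terminal oligopyrimidine (TOP) tract, through which mTORC1 and LARP1 control their stability and translation. In mouse liver, feeding and the clock are known to act on these mRNAs largely at translation, which mRNA counts do not measure.

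Poly(A) RNA was sequenced from whole liver of wild type C57bl6 mice aged 8 to 16 weeks, housed at 12 h light and 12 h dark. At week 1 of the paradigm all mice, misaligned and control, went from chow to a diet that took 42% of its calories from fat. The groups were misaligned females, control females, misaligned males and control males, each taken at clock times 0, 4, 8, 12, 16 and 20 h with 3 biological replicates. This gave 72 libraries, 18 per sex and treatment. Neither the schedule of misalignment nor its relation to the stated clock times is given in the labels. Values are CPM, counts scaled by the size of the library and by TMM factors, and a log2 difference is misaligned minus control or female minus male. A call is an adjusted p under 0.05.

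A library held 11551524 to 12529963 gene counts. Hepatocyte markers were abundant in every group: the summed level of 9 genes had a median of 121175 CPM in misaligned females, 122218 CPM in control females, 92128 CPM in misaligned males and 91919 CPM in control males. In bulk liver, fewer cells of a type and less RNA per cell cannot be told apart. Core members held a median of 1.39% of all gene counts in misaligned females, 1.38% in control females, 1.21% in misaligned males and 1.33% in control males, and single libraries ranged from 0.992% to 1.63%. With reads that could belong to several features included, the medians were 1.25%, 1.24%, 1.09% and 1.20% in the same order of groups.

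Levels between genes were compared per length, as mean CPM per kilobase of the shortest principal transcript over 72 libraries. The 5 highest members were Rpl10, which joins the large subunit in its last maturation step, at 663 ± 73.0 CPM per kb (SD), Rps2 at 435 ± 51.3, Rps18 at 391 ± 58.2, Rpl41 at 387 ± 54.1 and Rpl9 at 371 ± 42.1 CPM per kb. Per kilobase of the longest principal transcript, Rpl41 stood at 291 CPM per kb with rank 14, and Rpl9 at 342 CPM per kb with rank 6. By the shortest, the median core member stood at 223 CPM per kb, and the 90th percentile of core members was 2.88 times the 10th. The lowest core value, 36.3 CPM per kb for Rps20, rested on a principal transcript of 3706 nt, so its low rank depends on that length. The 5 lowest of all members were outside the core: Rpl3l, known from striated muscle, at 0.0315 CPM per kb, Rpl39l, known from testis, at 0.0511, Rpl32l at 3.28, Rpl6l at 5.91 and Rps3a2 at 6.73 CPM per kb. Rpl3l and Rpl39l had at most 5 counts in any library and were not tested.

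Many pseudogene copies of these genes exist, and reads that could belong to several features cannot be placed on a single gene. Which features shared these reads was not tested. The share of reads assigned ambiguously was highest for Rps3a2 at 84.1%, Rpl6l at 74.6%, Rpl13a at 73.3%, Rpl24 at 65.0% and Rpl36al at 59.7%. It was under 10% for 60 of the 76 core members and over 30% for 4. Counts of the 6 processed pseudogenes and of members with a large ambiguous share are uncertain for that reason.

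RefSeq promoter windows on GRCm38.p6 were matched for 66 of the 90 members, 56 of them core. A C at the annotated start that opens a run of at least 5 pyrimidines, the form of a TOP tract, occurred in 12 of 56 core windows (21.4%) and in 2.51% of 32851 windows of all genes. The letters CCGGAAG, the core of ETS-family sites, occurred on either strand in 22 of 56 core windows (39.3%) and in 8.86% of all. CACGTG, the E-box bound by CLOCK and BMAL1, occurred in 5 of 56 (8.93%) against 7.15% of all, and AAGATGGCG, the core of YY1 sites, in 3 of 56 (5.36%) against 1.40%. Annotated starts can lie several bases from the used start, so these shares describe the annotation. The following windows run from 30 bases before the annotated start to 20 bases from it, for members that the results below turn on and their partners. Capitals mark the pyrimidine run that begins with a C at the start, and a window without capitals has no C there.
Rps28 (chr17:33824543-33824592, minus strand): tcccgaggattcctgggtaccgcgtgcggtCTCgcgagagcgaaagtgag
Rps27 (chr3:90213629-90213678, minus strand): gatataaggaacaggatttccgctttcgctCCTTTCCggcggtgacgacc
Rps27l (chr9:66946056-66946105, plus strand): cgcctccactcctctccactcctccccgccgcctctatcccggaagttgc
Rpl22 (chr4:152325696-152325745, plus strand): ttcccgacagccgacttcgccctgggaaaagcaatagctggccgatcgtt
Rpl22l1 (chr3:28805478-28805527, plus strand): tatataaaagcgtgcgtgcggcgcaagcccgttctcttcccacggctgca
Rpl36a (chrX:134585624-134585673, plus strand): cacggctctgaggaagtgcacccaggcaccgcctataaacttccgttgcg
Rpl36al (chr12:69184048-69184097, minus strand): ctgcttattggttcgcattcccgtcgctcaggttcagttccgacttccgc
Rps27 opened with a run of 7 pyrimidines and Rps28 with a run of 3. Of the 7 paralogue windows, 1 had a run of at least 5, that of Rps27rt, a retrogene copy of Rps27.

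The core members varied together from library to library. After group means were removed, the median correlation over all pairs of core members was 0.70, and 97.9% of pairs were positive, over 72 libraries that share depth and scaling. A first component held 60.9% of the variance with the same sign for all 76 core members, and a second held 25.3%. The second set Rpl36, Rplp1, Rplp2, Rps29 and Rpl29 against Rpl39, Rpl36a, Rps25, Rps27, Rpl35a and Rps27a. Loadings on both components correlated with the GC content of the transcripts, which ran from 41.3% to 62.4% (r = 0.58 and 0.56 over 76 genes). Rps7 followed the median of the core most closely, at r = 0.94, and Rpl7l1, which acts in the nucleolus during large-subunit assembly, followed it least, at r = 0.11. Because of this shared variation, counts of core members moving one way are not counts of independent events.

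Misalignment called none of the 88 members on the mean over clock times, in either sex, by edgeR, limma-voom or DESeq2. In females, 0 members were called, as were 0.00664% of all genes, and 1 member had an unadjusted p under 0.05 in edgeR's quasi-likelihood test. The median log2 difference was 0.02 over members and -0.00 over all genes, and 54 of 76 core members were positive. The smallest p-values belonged to Rps3a3 (-0.20 ± 0.09 SE), Rps4l (0.31 ± 0.17), Rps3a2 (-0.13 ± 0.07), Rpl6l (-0.16 ± 0.10) and Rpl36al (0.08 ± 0.05). These were 4 pseudogenes and a paralogue, and no core member stood among them.

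In males, 0 members were called against 0% of all genes, and 16 had an unadjusted p under 0.05, all of them with a negative difference. The median was -0.06 over members and 0.01 over all genes, and 9 of 76 core members were positive. The smallest p-values belonged to Rpl32l (-0.47 ± 0.14 SE), Rpl23 (-0.16 ± 0.05), a large-subunit protein that binds MDM2, Rps3a2 (-0.22 ± 0.08), Rpl22 (-0.12 ± 0.04) and Rps24 (-0.14 ± 0.05), with adjusted p-values from 0.743 upward in edgeR's quasi-likelihood test. Rpl23 and Rps24 had unadjusted 95% intervals from -0.27 to -0.05 and from -0.25 to -0.04. The difference of these effects between the sexes, female minus male, was called for 0 members by any of the 3 tools and for 0% of all genes. It had a median of 0.08 over members and -0.01 over all genes, and it was positive for 72 of 76 core members. Rpl12 (0.19 ± 0.09), Rps12 (0.20 ± 0.09) and Rps23 (0.14 ± 0.07) had an unadjusted p under 0.05, and Rpl13a (0.19 ± 0.10) and Rpl9 (0.13 ± 0.07) came next.

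Differences between the sexes were called for most members in misaligned mice and for fewer in controls. In misaligned mice, 61 of 88 members (69.3%) were higher in females than in males, against 17.8% of all genes. Another 3 (3.41%) were lower, against 19.9% of all genes. Among the 3319 tested genes with the highest levels, 23.1% were higher in misaligned females. The 61 were 60 core members and Rps27rt, with log2 differences from 0.12 to 0.53, or 1.08-fold to 1.45-fold. The median was 0.17 over members and 0.01 over all genes, and 74 of 76 core members were positive. The calls covered 31 of 46 large-subunit and 29 of 30 small-subunit core members, with medians of 0.16 and 0.22.

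Rps28, a small protein of the small subunit, ran from 69.8 CPM over a median of 76.2 to 83.3 CPM in misaligned females and from 35.2 over 57.3 to 66.4 CPM in misaligned males. Of the 88 members, 1 had all 18 female misaligned libraries above all 18 male ones, against 70 of 15066 genes (0.465%). That member was Rps28, singled out after its values were seen, and a count of 1 says nothing about the members as a group. Its log2 difference was 0.45 ± 0.07 (SE), 1.37-fold, with an adjusted p of 3.02e-07 by edgeR's quasi-likelihood test with Benjamini-Hochberg adjustment.

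Rpl22, an RNA-binding protein of the large subunit, ran from 94.9 over 104 to 122 CPM in misaligned females and from 76.7 over 86.6 to 99.7 CPM in misaligned males. All 18 female libraries lay above the male median, and 12 lay above the highest male library. Its log2 difference was 0.30 ± 0.04, and its adjusted p of 1.69e-07 was the smallest among the members in edgeR's quasi-likelihood test. Rps18, in the head of the small subunit, ran from 213 over 240 to 306 CPM in misaligned females and from 156 over 193 to 243 CPM in misaligned males. Again all 18 female libraries lay above the male median, with 7 above the highest male library.

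Next by p-value came Rps20 (0.30 ± 0.05), Rpl14 (0.23 ± 0.04), Rps23 (0.24 ± 0.05), which lines the decoding centre, Rpl13a (0.36 ± 0.07), Rpl10 (0.21 ± 0.04) and Rpl7 (0.23 ± 0.05). Each was higher in misaligned females at 6 of 6 clock times, and their adjusted p-values in edgeR's quasi-likelihood test were at most 1.10e-04. Rpl13a rested on the smaller part of its reads, as given above. The largest difference, 0.53 ± 0.16, belonged to Rpl36, whose libraries ran from 28.5 to 74.5 CPM in misaligned females and from 13.9 to 51.5 CPM in misaligned males.

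**Figure D1:**
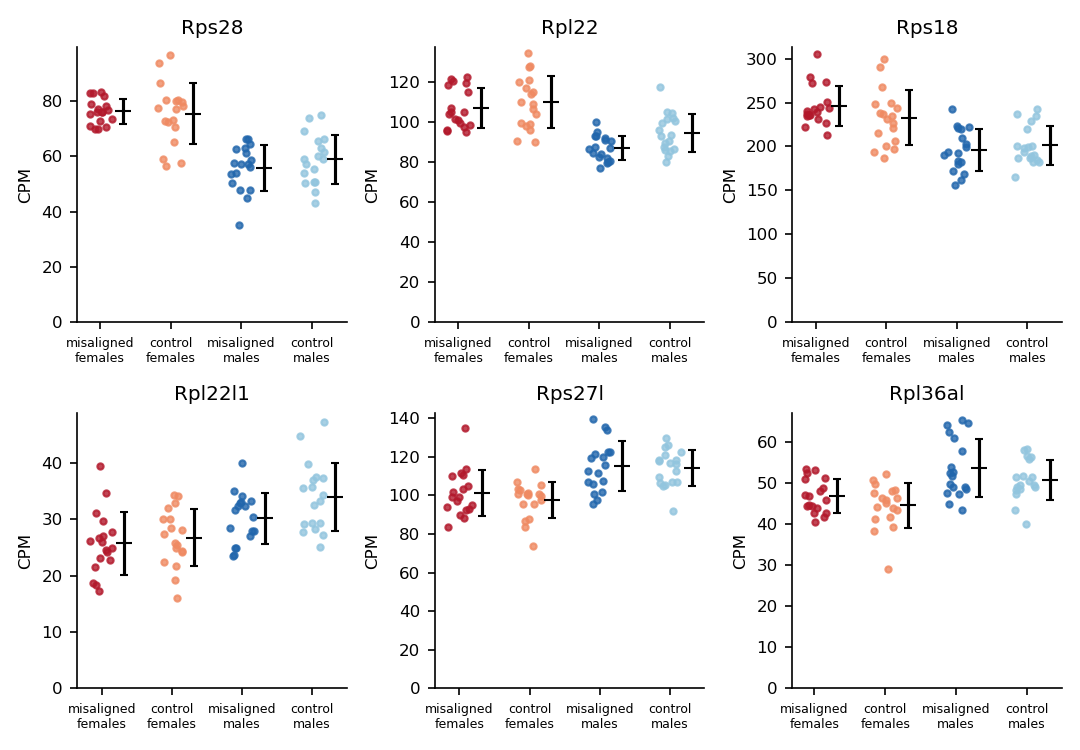
CPM of 6 members in each library, with 18 libraries per sex and treatment; points are libraries, and the black mark and bar are mean and SD. Rps28, Rpl22 and Rps18 sit higher in females of both treatments, Rpl22l1, Rps27l and Rpl36al sit higher in males, and only Rps28 in misaligned mice shows no overlap between the sexes.

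In controls, 25 of 88 members (28.4%) were higher in females than in males, against 16% of all genes, and 3 (3.41%) were lower, against 17% of all genes. Among the 3319 tested genes with the highest levels, 22.1% were higher in control females, so the control share of members stands less far from that of abundant genes. All 25 were core members, 14 of the large and 11 of the small subunit, and the median was 0.10 over members and 0.01 over all genes. This count depended on which libraries were used. It was 15 without the control female library of replicate 3 at 8 h, and 15 to 33 over the 72 libraries left out 1 at a time. Without all libraries of replicate 1, 2 or 3, which also leaves fewer libraries per group, it was 30, 8 and 6. It was 10 when libraries were scaled by total counts alone and 8 on junction-spanning reads. Without replicate 2, the count of 61 in misaligned mice was 30.

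Rps28 ran from 56.4 over 77.3 to 96.5 CPM in control females and from 43.2 over 59.0 to 75.0 CPM in control males. Of 18 female libraries, 16 lay above the male median, but the groups overlapped. Its log2 difference was 0.35 ± 0.07, with an adjusted p of 4.09e-05 in edgeR's quasi-likelihood test. Other members higher in control females were Rpl22 at 0.21 ± 0.04, Rpl10 at 0.17 ± 0.04, Rps18 at 0.21 ± 0.06, Rpl3, which lies at the peptidyl transferase centre, at 0.19 ± 0.05, and Rpl7 at 0.18 ± 0.05. Each of these was higher in control females at 6 of 6 clock times.

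Each of the 28 members called in controls was also called in misaligned mice in the same direction, which is 100% of the control calls and 43.8% of the 64 misaligned calls. Across the 76 core members, both sex differences correlated at r = 0.90, a description over genes that vary together, from livers that the comparisons do not share. The difference was larger in misaligned mice for 72 of 76 core members. That excess is the sex difference of the misalignment effect given above, for which no member was called. Called in neither were 16 core members: Rpl17, Rpl19, Rpl24, Rpl27, Rpl29, Rpl31, Rpl35, Rpl35a, Rpl36a, Rpl38, Rpl39, Rpl41, Rpl6, Rplp0, Rplp1 and Rps19.

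**Figure D2:**
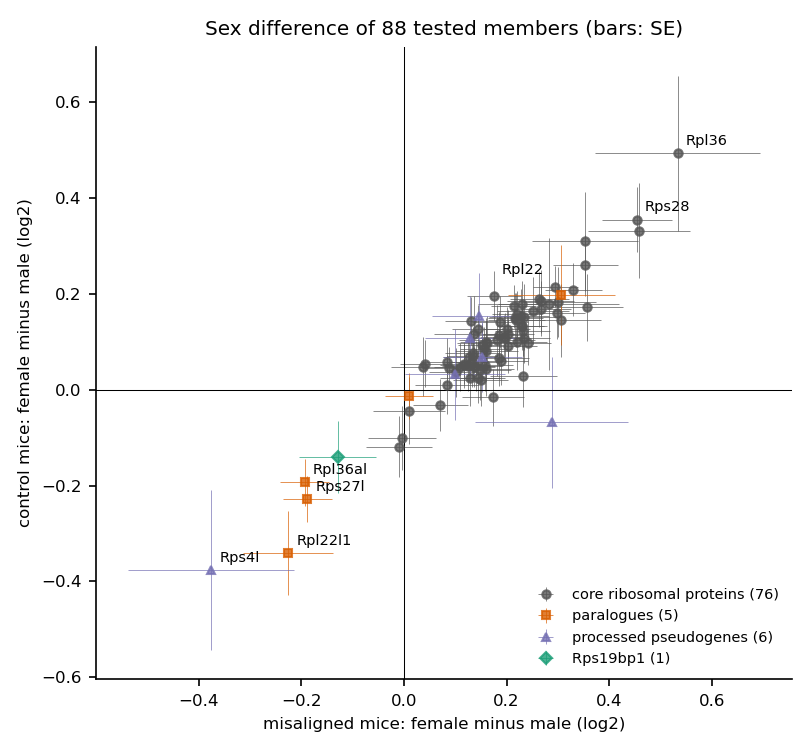
Log2 difference, female minus male, in misaligned mice (horizontal) and in controls (vertical) for the 88 tested members; bars are standard errors. Core members lie mostly in the upper right with Rpl36 and Rps28 farthest out. The paralogues Rpl22l1, Rps27l and Rpl36al lie at the lower left, as does the processed pseudogene Rps4l, which was called in neither comparison.

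Core genes lay on 19 chromosomes, 14 of them on chromosome 7, and 4 were X-linked. Among the X-linked members, Rpl10 (0.21 in misaligned mice and 0.17 in controls) was called in both comparisons and Rps4x (0.16 and 0.10) in misaligned mice only. Rpl36a (0.15 and 0.04) and Rpl39 (-0.00 and -0.10) were called in neither.

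GC content was set beside these results because the common variation of the core followed it. In misaligned mice, calls covered 19 of 26 core members of the high, 21 of 25 of the middle and 20 of 25 of the low range of GC content, with median log2 differences of 0.22, 0.18 and 0.18. In controls, they covered 10 of 26, 8 of 25 and 7 of 25, with medians of 0.14, 0.09 and 0.10. A slope of levels on GC content was fitted in each library over the 15063 tested genes with a known GC content. Its median was 0.03 log2 per 10 percentage points in misaligned females, 0.04 in control females, -0.02 in misaligned males and -0.08 in control males. With GC-content offsets in the fit, a setting chosen after seeing the data, 58 members were higher and 4 lower in misaligned females, and 24 were higher and 6 lower in control females. The medians over members were then 0.18 in misaligned mice and 0.09 in controls.

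The 3 members called lower in females in both comparisons were the paralogues Rpl22l1, Rps27l and Rpl36al. Members that were not called could also lie lower in females. For the processed pseudogene Rps4l, 16 of 18 misaligned and 12 of 18 control female libraries lay below the male median. Rpl22l1 replaces Rpl22 in ribosomes of some cells, and Rpl22 protein is known in mouse to bind the Rpl22l1 transcript and lower its level. It ran from 17.3 over 25.4 to 39.5 CPM in misaligned females and from 23.6 over 30.9 to 40.0 CPM in misaligned males, and from 16.0 over 26.6 to 34.3 CPM in control females and from 25.1 over 33.8 to 47.3 CPM in control males. Both pairs of groups overlapped, with 15 of 18 misaligned and 16 of 18 control female libraries below the male median. The log2 difference was -0.23 ± 0.09 in misaligned mice and -0.34 ± 0.09 in controls, with adjusted p-values of 0.0364 and 0.00175 in edgeR's quasi-likelihood test.

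Rps27l differs from Rps27 by few residues and is a known target of p53. It ran from 83.7 over 99.2 to 135 CPM in misaligned females and from 95.5 over 114 to 139 CPM in misaligned males, and from 73.7 over 100.3 to 114 CPM in control females and from 91.9 over 117 to 130 CPM in control males. All 18 control female libraries and 17 of 18 misaligned female libraries lay below the male median of their treatment. Its log2 difference was -0.19 ± 0.05 in misaligned mice and -0.23 ± 0.05 in controls. Rpl36al, nearly identical in protein to Rpl36a, had log2 differences of -0.19 ± 0.05 in misaligned mice and -0.19 ± 0.05 in controls, and 59.7% of its reads were ambiguous. Rpl7l1 differed between the sexes by 0.01 ± 0.05 in misaligned mice and -0.01 ± 0.05 in controls and was called in neither.

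A paralogue and its partner are measured in the same library, so the log2 ratio of their CPM does not depend on scaling between libraries. Pairs were chosen after their values had been seen, and 5 pairs in 4 comparisons gave 20 2-sided permutation tests with 100000 resamples, adjusted together. Rpl22l1, Rpl22, Rps27l, Rps27, Rpl36al and Rpl7 had already been called between the sexes in the same libraries, in both treatments. The ratio tests between the sexes therefore restate those differences and give no separate support. The ratio of Rpl22l1 to Rpl22 averaged -2.07 ± 0.29 (SD, n = 18) in misaligned females and -1.54 ± 0.21 in misaligned males, and -2.06 ± 0.25 in control females and -1.49 ± 0.26 in control males. The differences of -0.54 and -0.57 held at 6 of 6 clock times, with an adjusted permutation p of 1e-04 each, from the smallest raw p these resamples allow. The ratio of Rps27l to Rps27 differed by -0.49 in misaligned mice and by -0.41 in controls (adjusted permutation p = 1e-04 and 0.00016). That of Rpl36al to Rpl36a differed by -0.34 and -0.24 (adjusted permutation p = 1e-04 and 0.0121), and that of Rpl7l1 to Rpl7 by -0.22 and -0.19 (adjusted permutation p = 0.00233 and 0.0117). The ratio of the retrogene copy Rps27rt to Rps27 differed by 0.02 and 0.01 (adjusted permutation p = 0.852 in both).

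Between misaligned and control mice, only 2 of these ratios had an adjusted permutation p under 0.05, both in males. These p-values are descriptive, because the pairs were chosen after their values were seen and the resamples did not keep clock time. No gene of either pair was called for misalignment. The partners Rps27 and Rpl36a also stood at the same end of the second component of the core, with loadings of -0.17 each. The ratio of Rps27l to Rps27 averaged 0.23 ± 0.14 in misaligned males and 0.06 ± 0.21 in control males (SD, n = 18 each), a difference of 0.18 with an adjusted permutation p of 0.0135. That of Rpl36al to Rpl36a averaged -0.30 ± 0.13 in misaligned males and -0.50 ± 0.26 in control males, a difference of 0.20 with an adjusted permutation p of 0.0135. In females both ratios differed by 0.10 between misaligned mice and controls (adjusted permutation p = 0.312 and 0.178), and whether the sexes differ in this was not tested.

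**Figure D3:**
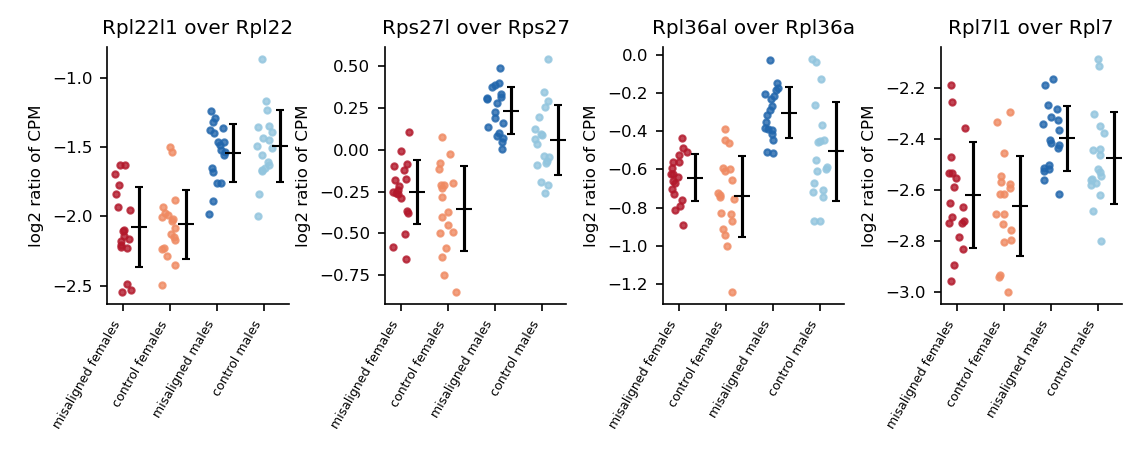
Log2 ratio of the CPM of a paralogue to that of its partner in each library; points are libraries, 18 per sex and treatment, and the black mark and bar are mean and SD. In all 4 pairs the female means lie below the male means of the same treatment, most widely for Rpl22l1 over Rpl22 (-0.54 in misaligned mice and -0.57 in controls).

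Neighbouring gene groups are given by counts of called genes, first in misaligned mice and then in controls. Of all genes, 17.8% were higher and 19.9% lower in misaligned females, and 16% were higher and 17% lower in control females. Of 4 listed ribosomal protein genes outside the rule, 4 (100%) were higher in misaligned females and 1 (25%) in control females, and 0 were lower in either. Rpsa (0.22), Fau (0.38) and Rack1 (0.17) were among those higher in misaligned females than in misaligned males. Fau (0.33) was the one higher in control females than in control males. Of 17 translation factors and other genes with known TOP mRNAs, 10 (58.8%) were higher and 1 (5.88%) lower in females in either treatment, with a median of 0.14 in both. Eef2, the factor that moves the ribosome along the mRNA, differed by 0.34 ± 0.06 in misaligned mice.

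Of 36 ribosome biogenesis factors, 3 (8.33%) were higher and 7 (19.4%) lower in misaligned females, and 2 (5.56%) higher and 8 (22.2%) lower in control females. The shares called lower were near those of all genes, and the shares called higher were below them. Nhp2 (-0.47) and Pno1 (-0.34) were lower and Npm1 (0.29) was higher in misaligned females. Of 78 mitochondrial ribosomal proteins, 6 (7.69%) were higher and 17 (21.8%) lower in misaligned females, and 5 (6.41%) higher and 11 (14.1%) lower in control females, with medians of -0.09 and -0.07. Here too the shares called lower were near those of all genes. Of 9 p53 and checkpoint genes, 0 were higher and 5 (55.6%) lower in misaligned females and 1 higher and 5 lower in control females, among them Mdm2 at -0.26 and -0.42.

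The remaining lists are short, so that 1 gene moves their shares widely. TOP-type hosts of small nucleolar RNAs had 4 higher and 1 lower of 7 in misaligned females and 2 higher and 1 lower in control females. Regulators of TOP mRNAs had 4 higher (18.2%) and 8 lower (36.4%) of 22 in misaligned females, and 5 higher (22.7%) and 6 lower (27.3%) in control females, with the share called higher in misaligned females near that of all genes. Genes of ribosomal RNA transcription had 3 higher (17.6%) and 2 lower (11.8%) of 17, and 1 higher and 1 lower (5.88% each), none of which exceeds the share of all genes. Ribosomal protein chaperones had 0 higher and 3 lower of 9, and 0 higher and 1 lower.

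Some markers of cell types were also called between the sexes, to be read against the same shares of all genes, and their part in the members' differences was not tested. Hepatocyte markers were higher in females for 5 of 9 genes in misaligned mice and for 4 of 9 in controls. Red blood cell markers were higher in control females for 8 of 11 genes and lower for 1, and in misaligned females 0 were higher and 2 lower. Kupffer cell markers were higher for 3 of 9 and 5 of 9, endothelial markers for 4 of 6 and 3 of 6, and lymphocyte markers for 1 of 12 (8.33%) and 2 of 12 (16.7%), which is no more than among all genes in misaligned mice and about the same in controls. Stellate cell markers were lower in females for 2 of 6 and 4 of 6, and markers of dividing cells for 5 of 5 and 4 of 5. Of 5 tested neutrophil markers 1 was higher in misaligned and 1 lower in control females, and of 5 cholangiocyte markers 1 was higher and 1 lower in misaligned and 2 were lower in control females. No list had a marker at 0 in all libraries.

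Rhythms over the day were small. A cosine of 24 h was fitted per sex and treatment, and the amplitude runs from mean to peak. Of 88 members, 0 were called rhythmic in misaligned females, 1 in control females, 0 in misaligned males and 0 in control males, against 7.69%, 12%, 0.00664% and 10.8% of all genes. Unadjusted p-values under 0.05 numbered 15, 5, 0 and 1 among the 88 members in the same order of groups. Of all 15066 genes, 3153, 3884, 1183 and 3586 lay under that bound, a larger share in each group. DESeq2 called 3 members and limma-voom 1 in misaligned females and the same counts as edgeR in the other groups. Median amplitudes of members were 0.09, 0.08, 0.05 and 0.09 log2, and those of all genes 0.16, 0.17, 0.13 and 0.17. Among the 1481 tested genes with the highest levels, median amplitudes were 0.13, 0.14, 0.10 and 0.12, nearer to those of the members. In simulated counts, where few genes were changed, 4 of 50 rhythms with an amplitude of 0.25 log2 were recovered in control females. The low counts of members called rhythmic therefore do not show that rhythms are absent.

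The member called was Rpl22 in control females, with an amplitude of 0.15 ± 0.04 (SE), a peak at 8.9 h and an adjusted p of 0.0386 in edgeR's quasi-likelihood test. Its mean was 107, 114, 112, 127, 104 and 95.1 CPM at 0, 4, 8, 12, 16 and 20 h (n = 3 each). All 3 libraries at 12 h lay above all 3 at 20 h. The call was lost under several alternatives and when any of 8 single control female libraries was left out. Next by p-value in control females were Rpl7l1, Rps19, Rps27 and Rps13, with amplitudes from 0.11 to 0.18. In misaligned females they were Rpl7l1 (0.17 ± 0.05, adjusted p = 0.0539 in edgeR's quasi-likelihood test), Rps27l, Rps6, Rpl17 and Rpl21. In control males they were Rpl22, Rpl15, Rpl17, Rps23 and Rpl36a, and in misaligned males Rpl32l, Rpl36al, Rpl27a, Rpl3 and Rps3a2.

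The fitted peaks of the core fell together although only Rpl22, in control females, was called. In misaligned females 64 of 76 core members peaked between 8 and 16 h, in control females 76, in misaligned males 3 and in control males 75. In misaligned males 68 of 76 peaked between 16 and 24 h. The window was chosen after the values were seen, and the core members vary together, so each of these counts describes in large part one common curve. Mean peaks of the members lay at 11.9, 11.3, 21.0 and 11.6 h in misaligned females, control females, misaligned males and control males.

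**Figure D4:**
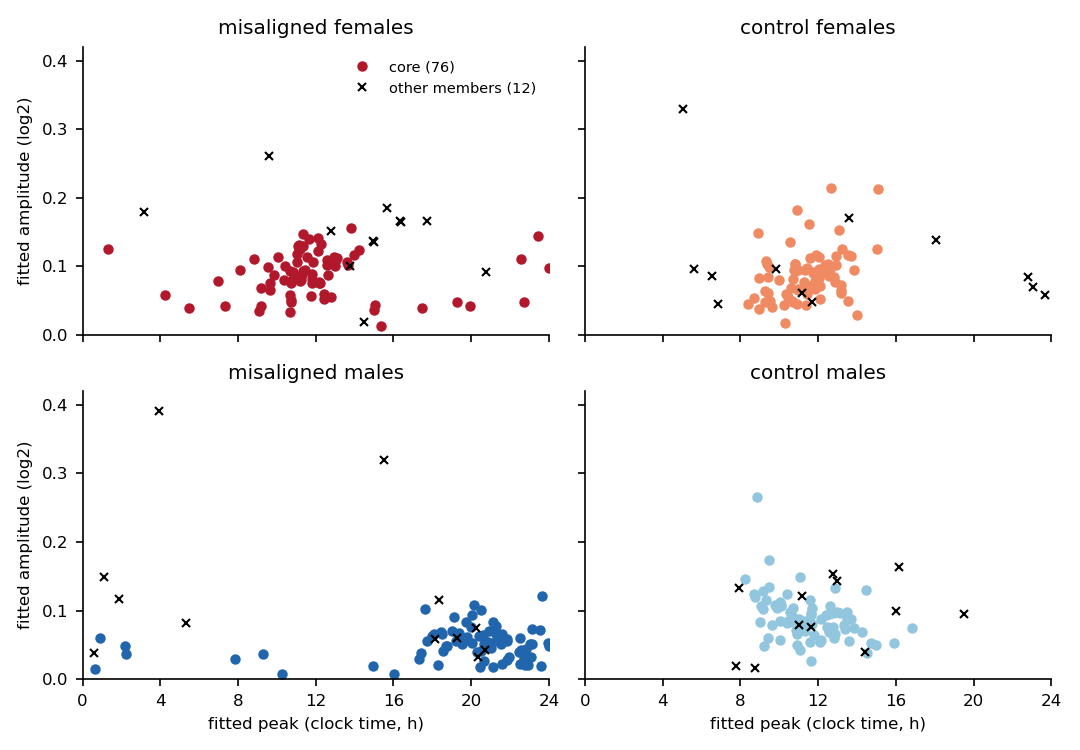
Fitted 24 h peak (horizontal, clock time in h) and amplitude (vertical, log2 from mean to peak) of the 88 tested members in each sex and treatment; filled points are the 76 core members and crosses the 12 others. Core peaks cluster between 8 and 16 h in all groups but misaligned males, where 68 of 76 lie between 16 and 24 h at lower amplitudes.

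The change of rhythm with misalignment was called for 0 members in females, against 0.192% of all genes, and for 0 in males, against 9.23%. In males 5 of 88 members had an unadjusted p under 0.05 in edgeR's quasi-likelihood test. Of all 15066 tested genes, 3634 did, which is a larger share. The 5 members were Rps27, Rpl3, Rpl11, which binds MDM2, Rpl17 and Rps23, with adjusted p-values from 0.164 upward. In females 0 members had an unadjusted p under 0.05, against 1236 of the 15066 genes. The smallest p-values in females belonged to Rpl36al, Rps3a2, Rps19bp1, Rpl32l and Rpl36a. The sex difference of the rhythm change was called for 0 members against 1.73% of all genes. Rps3a2, Rpl32l and Rpl36a lay under 0.05 before adjustment, and Rps23 and Rpl23 came next. These 3 of 88 members are a smaller share than the 2126 of 15066 genes under that bound. The sex difference of rhythm in controls was called for 0 members against 0% of all genes, led by Rpl32l, Rpl22l1, Rpl39, Rplp2 and Rplp1, none under 0.05 before adjustment. DESeq2 and limma-voom called 0 members in these 4 comparisons of rhythms.

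By clock time, the members stood apart most at 8 h in males. There the median log2 difference between misaligned and control males was -0.27 over members and 0.00 over all genes, and 0 of 76 core members were positive. The common level, the median over core members of log2 CPM around the mean of 72 libraries, ran from -0.26 to -0.11 in the 3 misaligned males and from -0.10 to 0.13 in the 3 control males at 8 h. These libraries did not overlap, but 3 against 3 cannot give an exact permutation p under 0.10, and no test was made. At 16 h the median in males was -0.16 with 1 of 76 core members positive, and the libraries overlapped, from -0.32 to -0.01 in misaligned and from -0.16 to 0.20 in control males. At 0, 4, 12 and 20 h the male medians were 0.02, 0.01, -0.06 and 0.05.

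In females the medians were -0.01, -0.03, 0.06, -0.00, -0.02 and 0.10 from 0 to 20 h. At 20 h 67 of 76 core members were positive, with common levels from -0.01 to 0.07 in misaligned and from -0.14 to 0.03 in control females. The sex difference in misaligned mice had its largest medians at 8 h (0.29) and 12 h (0.27), where 76 of 76 core members were higher in females, and its smallest at 4 h (0.08) and 20 h (0.07). In controls the median was -0.03 at 8 h and 0.19 at 12 h.

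**Figure D5:**
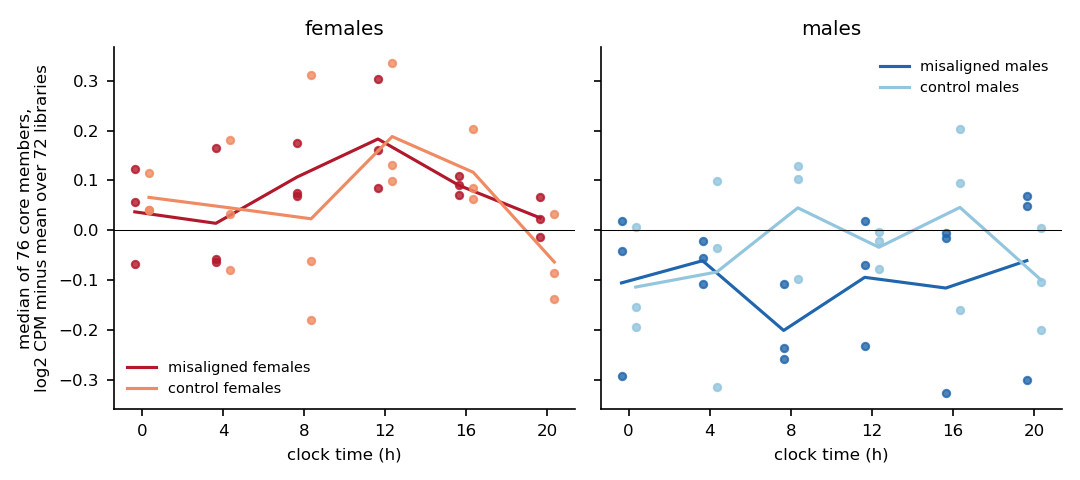
Common level of the 76 core members (median log2 CPM minus the mean over 72 libraries) by clock time in h; points are libraries, slightly offset, and lines join group means. Misaligned males lie below control males at 8 h without overlap (-0.26 to -0.11 against -0.10 to 0.13), while in females both treatments lie highest at 12 h.

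Intron reads, which come largely from unspliced RNA, gave few calls for the sex difference. Intron rows existed for 84 members, and 79 were tested among 11293 genes, with a median of 43.4 counts per member and library. Summed core intron counts had medians of 4478 in misaligned females, 4408 in control females, 4456 in misaligned males and 4971 in control males. In misaligned mice, 1 member was higher in females against 8.15% of all genes and 0 were lower against 9.16%, with a median of 0.11 and 64 of 79 members positive. That was Rpl36 (0.58 ± 0.20, adjusted p = 0.0386 in edgeR's quasi-likelihood test), with 12 to 59 intron counts in misaligned females and 5 to 37 in misaligned males, and Rps26, Rpl10a, Rps20 and Rps15 came next, uncalled. In controls, 0 were higher against 7.38% of all genes and 3 were lower against 7.28%: Rpl35a (-0.43 ± 0.14), Rps19 (-0.33 ± 0.12) and Rps27l (-0.37 ± 0.13), with a median over members of -0.06 and 23 of 79 positive. Without a filter on low counts, Rpl35a was still called, and Rps19, Rps27l and, in misaligned mice, Rpl36 were not. With ambiguous reads included, Rps19 and Rps27l were still called, and Rpl35a and Rpl36 were not. With the filter and without ambiguous reads, Rps27l was lower in control females in both intron and mature counts, while Rpl37rt (0.31) and Rpl23a (-0.48) were not called.

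Misalignment called 0 members by intron counts in females, in males and in the sex difference, against 0%, 0% and 0% of all genes. Members with an unadjusted p under 0.05 numbered 4, 6 and 10 in edgeR's quasi-likelihood test, and all genes were not counted at that bound. The medians were 0.07 in females, -0.09 in males and 0.16 for their difference, and all genes stood at -0.01, 0.01 and -0.01. In females Rpl7a (0.53 ± 0.13), Rps19, Rpl37rt, Rpl36 and Rpl10a had the smallest p-values, in males Rpl37rt (0.42 ± 0.12), Rps15a, Rps27, Rpl35a and Rpl23, and for the difference Rps27 (0.54 ± 0.18), Rpl7a, Rpl38, Rps19 and Rps15a.

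Intron rhythms were called for 0 members in misaligned females, control females, misaligned males and control males, against 2.1%, 3.98%, 0% and 2.56% of all genes. Under an unadjusted p of 0.05 lay 14, 8, 1 and 5 members, and all genes were not counted at that bound. Leading members were Rpl31, Rps27a, Rpl7l1, Rpl3 and Rps13 in misaligned females, and in control females they included Rps27a, Rpl4, Rpl8 and Rpl9. In misaligned males they were Rpl3, Rps18, Rps15, Rpl26 and Rps19, and in control males Rpl3, Rps19, Rpl14, Rpl29 and Rps13. The rhythm of Rpl3 introns changed with misalignment in males, and it was the 1 member of 79 called, against 1.83% of all genes (adjusted p = 0.0406 in edgeR's quasi-likelihood test). Its introns peaked at 18.9 h with an amplitude of 0.28 ± 0.10 in misaligned males and at 9.3 h with 0.33 ± 0.10 in control males. The call was lost without a filter on low counts, and Rps13, Rpl8, Rps4x and Rpl36al came next, uncalled. The change in females, its sex difference and the sex difference in controls called 0 members against 0%, 0.496% and 0% of all genes, led by Rps12, Rpl36al, Rpl3, Rps13 and Rpl22 in females, by Rpl3, Rps12, Rpl10a, Rpl14 and Rpl22 for its sex difference, and by Rpl9, Rpl12, Rpl34, Rps12 and Rps29 in controls.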

How the data were processed

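Per the labels' protocols, RNA was poly(A) selected, prepared with a TruSeq stranded kit and sequenced as paired 150 bp reads. Alignment used STAR 2.6.0c and the genome GRCm38, per the submitters' processing notes. The deposited files hold whole-number read counts per gene, intron and junction-spanning read, made by the authors, once without and once with ambiguous reads; the version without them was used. Library totals differed by 1.08 times at most, and how they came to be so equal is not given in the sources used here. Columns were matched to samples by title, with 0 left over. Genes were filtered by filterByExpr over 24 groups, scaled by TMM and fitted with edgeR 4.0.16 (robust quasi-likelihood, R 4.3.3) with 1 mean per group, or a cosine and sine of 24 h per sex and treatment, on all libraries. Tests are 2-sided, adjusted by Benjamini and Hochberg over all tested genes at 0.05. Alternatives used limma 3.58.1 (voom) and DESeq2 1.42.0. Intron counts were summed per gene and fitted alike. Positions and lengths are of GENCODE vM21. The text names, for each test, called members by smallest p up to 10, or the 5 smallest where fewer than 5 were called. Some results that this rule would name are not reported here. Named beyond it are the highest and lowest levels, the paralogues and the most ambiguous members. Members and lists were chosen with earlier results of these data known. Misaligned and control libraries of the same sex, clock time and replicate number formed 36 pairs. These correlated from -0.47 to 0.45 with a median of -0.03, and 9 lay above 0.1. Whether a replicate number linked females with males, or clock times with each other, was not tested. In simulated counts of 14618 genes, the sex difference in controls recovered 0 of 48 genes changed by 0.25 log2, 29 of 49 by 0.5, 47 of 49 by 1 and 48 of 48 by 2. The rhythm test in control females recovered 4 of 50 genes with an amplitude of 0.25 log2, 21 of 48 with 0.5, 46 of 48 with 1 and 48 of 49 with 2. Figures were drawn with matplotlib 3.10.9.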

Additional observations from a re-analysis of the deposited data

How the results depend on the processing

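The sex difference kept 25 higher and 3 lower members in controls, and 61 and 3 in misaligned mice, with a block for the replicate number. Members higher in control females numbered 10 under total counts and 8 on junction-spanning reads; lower ones numbered 6 with GC-content offsets, a setting chosen after seeing the data, and 0 among core members, as in misaligned mice. Single libraries left out gave 15 to 33 higher in controls and 51 to 64 in misaligned mice, and replicate numbers left out 6 to 30 and 30 to 47. Lower ones stayed at 2 to 4 in either. Of 28 control calls, 18 were kept without every single library and 8 in every setting; of 64 misaligned calls, 52 and 42. Rhythm calls in misaligned females numbered 1 under RLE size factors, total counts, a filter at 5 CPM, limma-voom and junction-spanning reads, 2 on the libraries compared alone and 3 under DESeq2, and 0 to 2 with a library left out. In control females they numbered 0 under total counts, no filter, a test across the 6 clock times, junction-spanning reads and the libraries compared alone, 2 with GC-content offsets, and 0 to 1 with a library or replicate left out. Rhythm changes in males numbered 1 across the 6 clock times and 0 to 1 without a replicate, as did rhythms in control males. Without a filter, intron calls were 1 lower in control females, 0 higher in misaligned females and 0 rhythm changes in males. With ambiguous reads, the share of counts was 1.25%, 1.24% and 1.20% in misaligned females, control females and control males. The cause of these shifts was not tested. In the simulated counts, where few genes were changed, 0 of 48 genes changed by 0.25 log2 were recovered. The sex comparisons called members from 0.12 log2 in misaligned mice and 0.13 in controls. The simulated recovery therefore sets no limit of detection for them.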
